A study of Mus musculus with 12 samples.

Results

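The 8 genes described here code for proteins of calcium-triggered secretion in mouse ileal enteroids: the SNARE proteins Snap25 and Stx1a, the SNARE-binding complexin Cplx2, the vesicle GTPase Rab3c, the synaptotagmins Syt7 and Syt13, and the calcium channel subunits Cacna1a and Cacna2d1. They were chosen with results of these libraries known, and were found as the rows of the deposited count table that carry their symbols, which gave 8 of 18068 genes. All 4 groups of libraries were used in choosing them, so their levels and differences are given as a description and without a test. Enteroids are epithelial cultures grown from the crypts of the small intestine, here from the ileum of wild-type C57Bl/6 mice. The 4 groups, with 3 libraries each, were untreated enteroids, enteroids given 1 mM butyrate for 48 h, enteroids given 20 ng/mL of the cytokine IL-13 for 72 h, and enteroids given both agents at these doses and times. All groups share the same wild-type background, and the labels do not say whether the libraries of a group came from separate mice or cultures, so every p-value printed for other genes measures only the spread between these libraries.

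Regulated exocytosis holds finished vesicles at the plasma membrane until calcium enters the cell. Snap25 and Stx1a sit on the plasma membrane and zip together with a vesicle SNARE, complexins bind the partly assembled bundle, Rab3 proteins mark the vesicles, synaptotagmins sense calcium, and voltage-gated channels let calcium in. In the gut epithelium this machinery is best known from enteroendocrine cells, which release hormones and serotonin from dense granules and are electrically excitable, while the same proteins serve synapses in neurons. Butyrate is a short-chain fatty acid made by gut bacteria and a histone deacetylase inhibitor, and IL-13 is a type 2 cytokine whose receptor is found on intestinal epithelial cells.

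Library totals ran from 13867982 to 24294456 counts. Levels are given as CPM, counts scaled to a common library total after TMM normalisation, and a gene was called at an edgeR quasi-likelihood adjusted p under 0.05 over the 13750 genes tested. All 8 genes passed the low-count filter. Markers of absorptive enterocytes were present in every library, with a summed level of at least 5596 CPM over 10 genes. Butyrate replicate 2 and butyrate + IL-13 replicate 3 stood apart in Lars2 (5048 and 6983 CPM against 422.8 to 1434 CPM in the other 10), and values that moved without them are given where they occur. These are bulk libraries, so fewer cells of a type and less RNA per cell cannot be told apart in any result here.

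Reference sequence just upstream of the gene start is shown for 3 of the 4 genes that had a window in the RefSeq promoter table: Rab3c and Cacna2d1, which had their lowest mean with both agents, and Stx1a, which was highest with IL-13 alone. Each is 250 bases from RefSeq on GRCm38.p6, the assembly also called mm10. Each window is written 5′ to 3′ on the gene's own strand and ends at the base before the gene start in RefSeq and in the count table. In GENCODE the Rab3c gene starts further upstream, at chr13:110280996, so its window lies inside that gene. Capitals mark matches to the E-box CANNTG, the motif bound by basic helix-loop-helix factors such as Neurod1 and Neurog3. CANNTG reads as the same pattern on both strands, so each match counts once.
Rab3c, chr13:110280207-110280456, minus strand: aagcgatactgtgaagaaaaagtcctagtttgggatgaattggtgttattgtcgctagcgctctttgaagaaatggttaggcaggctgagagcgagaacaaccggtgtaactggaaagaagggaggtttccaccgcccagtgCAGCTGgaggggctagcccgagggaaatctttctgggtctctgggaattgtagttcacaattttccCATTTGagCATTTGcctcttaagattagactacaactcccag
Cacna2d1, chr5:15934441-15934690, plus strand: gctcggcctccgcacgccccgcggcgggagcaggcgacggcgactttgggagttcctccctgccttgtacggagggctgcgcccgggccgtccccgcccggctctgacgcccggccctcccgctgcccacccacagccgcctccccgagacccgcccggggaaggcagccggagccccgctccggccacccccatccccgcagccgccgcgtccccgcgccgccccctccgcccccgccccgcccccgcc
Stx1a, chr5:135023232-135023481, plus strand: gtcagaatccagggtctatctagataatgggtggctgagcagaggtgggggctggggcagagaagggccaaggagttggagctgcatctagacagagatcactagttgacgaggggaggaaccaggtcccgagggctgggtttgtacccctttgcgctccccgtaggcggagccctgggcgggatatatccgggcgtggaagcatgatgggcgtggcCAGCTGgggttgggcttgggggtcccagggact
The Rab3c window held 3 matches, that of Stx1a 1 and that of Cacna2d1 0. Of 32851 windows of the same length in the RefSeq promoter table, 66.2% held at least 1 match, so its presence is common and describes these letters only. The windows differed in base composition, with 47.6% G and C for Rab3c, 62% for Stx1a and 82.4% for Cacna2d1, against a median of 52.4% over all windows. The Cacna2d1 window held 36 CpG dinucleotides, that of Stx1a 9 and that of Rab3c 7.

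Across the 4 groups, 6 of the 8 genes shared 1 order. Snap25, Cplx2, Rab3c, Syt13, Cacna1a and Cacna2d1 had their lowest mean with both agents, at 11.4% to 35.1% of the untreated level in the fit, and their next lowest with butyrate alone. Their untreated and IL-13 libraries overlapped, except for Rab3c, which was higher with IL-13. Stx1a and Syt7 did not follow this order. Stx1a, at 13.6 ± 0.672 CPM (SD, n = 3), was highest with IL-13 alone, and the group means of Syt7 ran from 62.7 ± 3.77 CPM with IL-13 to 76.9 ± 1.72 CPM with butyrate.

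**Figure D1:**
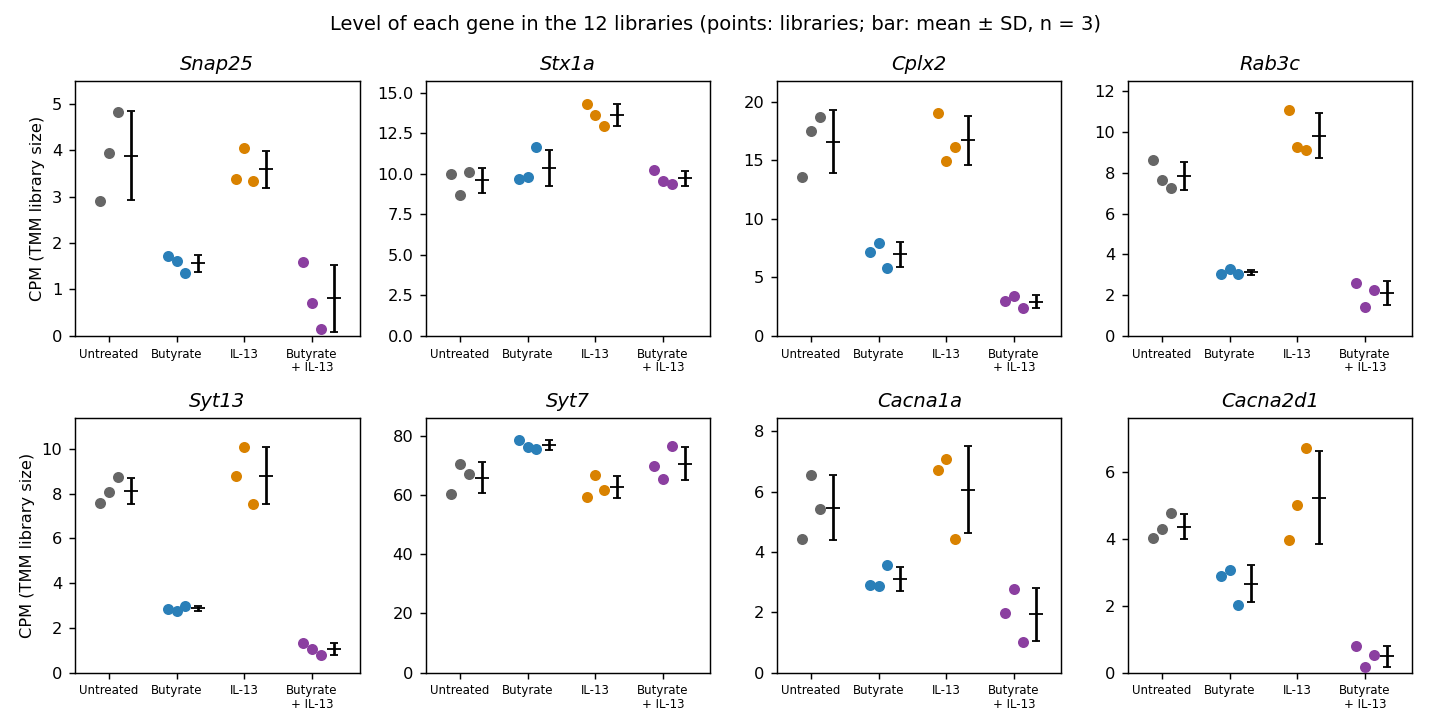
CPM of each of the 8 genes in the 12 libraries, with points for libraries and bars for the group mean ± SD of 3 libraries; each panel has its own linear axis from 0. Snap25, Cplx2, Rab3c, Syt13, Cacna1a and Cacna2d1 have their lowest group mean with butyrate + IL-13, whereas Stx1a is highest with IL-13 alone and Syt7 stays between 59.5 and 78.8 CPM.

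Snap25 (ENSMUSG00000027273, mm10 chr2:136713453-136782428, plus strand) codes for the membrane SNARE that supplies a pair of helices to the fusion bundle. Its level was 2.90, 3.93 and 4.82 CPM in the untreated libraries and 3.39, 4.05 and 3.34 CPM with IL-13. With butyrate it was 1.72, 1.61 and 1.36 CPM, and with both agents 1.58, 0.717 and 0.146 CPM. Every library without butyrate lay above every library with it, whereas the groups with butyrate and with both agents overlapped. The fitted log2 fold change was -1.29 ± 0.35 (SE) for butyrate over untreated and -2.15 ± 0.43 for both agents over IL-13. The latter rested on 20, 9 and 2 counts in the libraries with both agents and ran from -3.05 without replicate 1 to -1.62 without replicate 3.

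Stx1a (ENSMUSG00000007207, mm10 chr5:135023482-135051100, plus strand) codes for syntaxin-1A, the partner of Snap25 on the plasma membrane. Its level was 10.01, 8.71 and 10.1 CPM untreated and 9.66, 9.78 and 11.7 CPM with butyrate. With IL-13 it was 14.3, 13.6 and 12.9 CPM, above all other libraries. With both agents it was 10.2, 9.56 and 9.36 CPM, back within the range of the untreated and butyrate libraries. The log2 fold change was 0.50 ± 0.13 for IL-13 over untreated, 0.11 ± 0.13 for butyrate over untreated and -0.49 ± 0.14 for both agents over IL-13. For IL-13 over untreated, the log2 fold change deposited by the authors was 0.51 for Stx1a. It comes from the same untreated and IL-13 libraries, so it is no separate check.

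Cplx2 (ENSMUSG00000025867, mm10 chr13:54371349-54383917, plus strand) codes for complexin-2, which binds assembled SNARE bundles and tunes their fusion. Its level was 13.5, 17.5 and 18.7 CPM untreated and 19.0, 15.0 and 16.1 CPM with IL-13. It was 7.16, 7.90 and 5.83 CPM with butyrate and 3.01, 3.42 and 2.34 CPM with both agents. The untreated and IL-13 groups overlapped, and the other 2 groups were separate from them and from each other. Cplx2 had a log2 fold change of -1.25 ± 0.17 for butyrate over untreated, -2.52 ± 0.20 for both agents over IL-13 and -1.26 ± 0.20 for both agents over butyrate. The last was -1.02 ± 0.24 without both Lars2-high libraries.

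Rab3c (ENSMUSG00000021700, mm10 chr13:110054187-110280206, minus strand) codes for a small GTPase of secretory vesicles. Its level was 8.62, 7.66 and 7.26 CPM untreated and 11.1, 9.27 and 9.12 CPM with IL-13, so all 3 IL-13 libraries lay above the untreated ones. It was 3.05, 3.28 and 3.06 CPM with butyrate, the tightest group of the 4, and 2.61, 1.43 and 2.27 CPM with both agents, below every butyrate library. In the fit Rab3c had a log2 fold change of 0.32 ± 0.17 for IL-13 over untreated, -1.33 ± 0.19 for butyrate over untreated and -2.22 ± 0.21 for both agents over IL-13. For both agents over butyrate it was -0.57 ± 0.23, and -0.36 without butyrate + IL-13 replicate 2.

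Syt13 (ENSMUSG00000027220, mm10 chr2:92915098-92956058, plus strand) codes for an atypical synaptotagmin found in endocrine tissue. Its level was 7.57, 8.06 and 8.76 CPM untreated and 8.80, 10.1 and 7.56 CPM with IL-13. It was 2.86, 2.76 and 3.00 CPM with butyrate and 1.34, 1.04 and 0.805 CPM with both agents. The groups with butyrate and with both agents were separate from each other and from the first pair, which overlapped. Syt13 had a log2 fold change of -1.50 ± 0.18 for butyrate over untreated, -3.05 ± 0.23 for both agents over IL-13 and -1.44 ± 0.25 for both agents over butyrate. Of the 8 genes it had the lowest value for butyrate over untreated.

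Syt7 (ENSMUSG00000024743, mm10 chr19:10389090-10453181, plus strand) codes for a synaptotagmin of high calcium affinity that acts on secretory granules and lysosomes. Its level was 60.2, 70.4 and 67.1 CPM untreated, 59.5, 66.9 and 61.9 CPM with IL-13 and 69.9, 65.5 and 76.6 CPM with both agents. With butyrate it was 78.8, 76.4 and 75.4 CPM, above all untreated and IL-13 libraries but overlapping the libraries with both agents. The log2 fold change lay between -0.12 ± 0.09 for both agents over butyrate and 0.22 ± 0.09 for butyrate over untreated, and no comparison called it. The 2 synaptotagmins thus differed: Syt13 at 13.1% of its untreated level with both agents, and Syt7 at 107%.

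Cacna1a (ENSMUSG00000034656, mm10 chr8:84388440-84640246, plus strand) codes for the pore of P/Q-type calcium channels, known from presynaptic terminals. Its level was 4.41, 6.56 and 5.43 CPM untreated and 6.71, 7.07 and 4.42 CPM with IL-13. It was 2.89, 2.86 and 3.57 CPM with butyrate and 1.98, 2.79 and 1.02 CPM with both agents. Every library without butyrate lay above every library with it, and all 3 libraries with both agents lay below the butyrate ones by a small margin. The log2 fold change was -0.82 ± 0.26 for butyrate over untreated, which was not called, and -1.66 ± 0.30 for both agents over IL-13.

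Cacna2d1 (ENSMUSG00000040118, mm10 chr5:15934691-16374511, plus strand) codes for the alpha2delta-1 auxiliary subunit, which carries channel pores to the membrane and is the target of gabapentin. Its level was 4.04, 4.29 and 4.77 CPM untreated and 3.97, 5.01 and 6.74 CPM with IL-13. It was 2.89, 3.07 and 2.04 CPM with butyrate and 0.791, 0.159 and 0.512 CPM with both agents. The libraries with both agents held 10, 2 and 7 counts, far below all others. The log2 fold change was -0.70 ± 0.26 for butyrate over untreated, which was not called, and -3.41 ± 0.37 for both agents over IL-13, the lowest of the 8 genes. Over the alternatives the latter ran from -3.89 to -3.01.

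Per kilobase of exon, Syt7 was the highest of the 8 genes in every group, from 8.38 to 10.3 CPM per kb. Untreated, Stx1a (3.60 ± 0.29 CPM per kb) and Cplx2 (3.37 ± 0.55 CPM per kb) followed and did not differ beyond their spread. Syt13 stood at 2.16 ± 0.16 CPM per kb. Rab3c, Snap25, Cacna1a and Cacna2d1 lay lower, from 0.65 down to 0.35 CPM per kb. With both agents the order changed: Stx1a, at 3.64 CPM per kb, was then several times above Cplx2 at 0.59 CPM per kb and Syt13 at 0.28 CPM per kb.

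The comparisons over all genes give the frame for these values. For IL-13 over untreated, 43.5% of the genes tested were called, and of the 8 genes 1, Stx1a, was called (higher; 21.8% of all genes were). Butyrate over untreated called 7.9% of all genes, 2.76% lower, and 4 of the 8 lower: Snap25, Rab3c, Syt13 and Cplx2. Both agents over IL-13 called 21.2% of all genes, 11.3% lower, and 7 of the 8 lower, all except Syt7. Both agents over butyrate called 47.7% of all genes, 24.9% lower, and 4 of the 8 lower: Rab3c, Syt13, Cplx2 and Cacna2d1. Both agents over untreated called 59.7% of all genes, 31.5% lower, and 6 of the 8 lower. Over the alternatives, 3 to 5 of the 8 were called lower for butyrate over untreated, 6 or 7 for both agents over IL-13, 3 to 5 for both agents over butyrate and 5 or 6 for both agents over untreated; without both Lars2-high libraries the counts were 4, 6, 3 and 6. Since the genes were chosen on these values, nothing is read from these counts.

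Separation of the libraries of 2 groups was counted beside the calls. In butyrate over untreated, 6 of the 8 genes lay lower and 1, Syt7, higher with no overlap, beside 14% and 13% of all genes. In both agents over IL-13, 7 of the 8 lay lower with no overlap, beside 19.1% of all genes. In IL-13 over untreated, Stx1a and Rab3c lay higher with no overlap, beside 29.4% of all genes. The median log2 fold change of the 8 genes was -1.03 for butyrate over untreated and -2.19 for both agents over IL-13, beside -0.01 for all genes in either comparison. These 2 comparisons share no library, but they come from the same fit. The genes were chosen with both known, so neither is a check on the other.

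**Figure D2:**
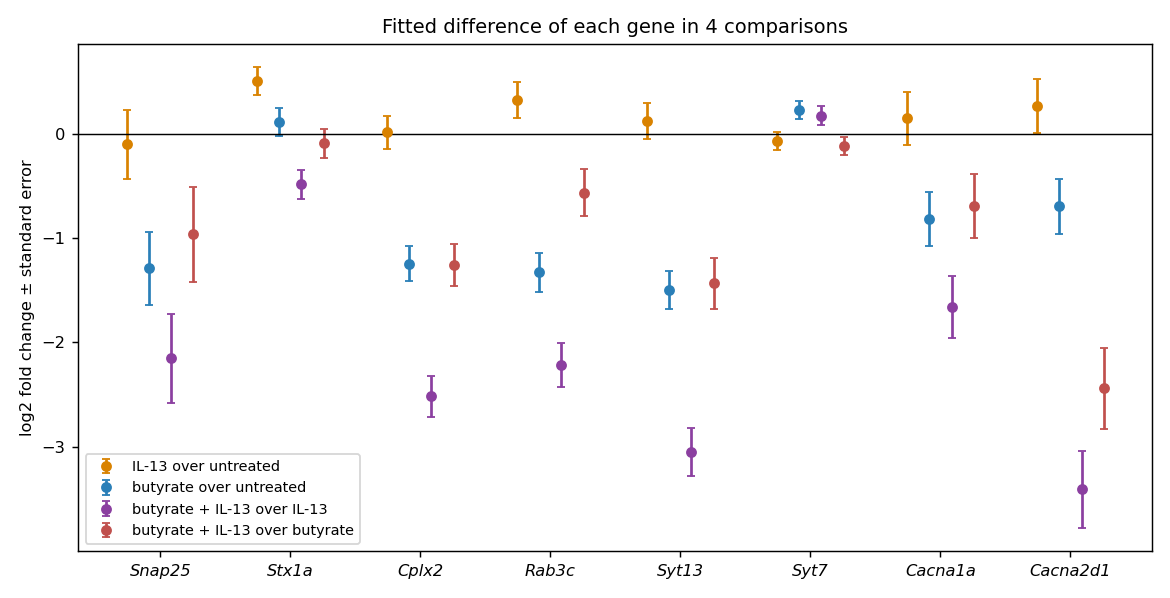
Fitted log2 fold change ± SE of each of the 8 genes in 4 comparisons of 3 with 3 libraries. In all 8 the difference of both agents over IL-13 (purple) is lower than that of butyrate over untreated (blue). The gap is widest for Cacna2d1, at -3.41 and -0.70. Syt7 stays near 0 in all 4 comparisons, at 0.17 and 0.22 in this pair.

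In 7 of the 8 genes, all except Syt7, the fitted log2 difference with butyrate lay lower in the presence of IL-13 than without it, in every alternative run. If the fitted changes of the single agents multiplied, both together would leave 42.5% of the untreated level of Cplx2, 38.4% of Syt13 and 74.2% of Cacna2d1. The fitted levels were 17.6%, 13.1% and 11.4%. The interaction, the log2 difference between these values, was -1.27 ± 0.26 for Cplx2, -1.55 ± 0.30 for Syt13 and -2.71 ± 0.47 for Cacna2d1. These 3 were called lower in it, beside 0.865% of all genes called and 0.611% called lower. Snap25 (-0.86 ± 0.56), Rab3c (-0.89 ± 0.28), Cacna1a (-0.84 ± 0.40) and Stx1a (-0.60 ± 0.19) also lay below 0 and were not called, and Syt7 was at -0.05 ± 0.12. The value for Snap25 was -1.77 without butyrate + IL-13 replicate 1, -0.34 without replicate 3 and -0.33 without both Lars2-high libraries, where that for Cplx2 was -1.04. Of the 3 interaction calls only that of Cacna2d1 was left without untreated replicate 2, without butyrate replicate 1, without butyrate + IL-13 replicate 3, and without both Lars2-high libraries. Without untreated replicate 1 or any single IL-13 library, 2 of the 3 were left.

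**Figure D3:**
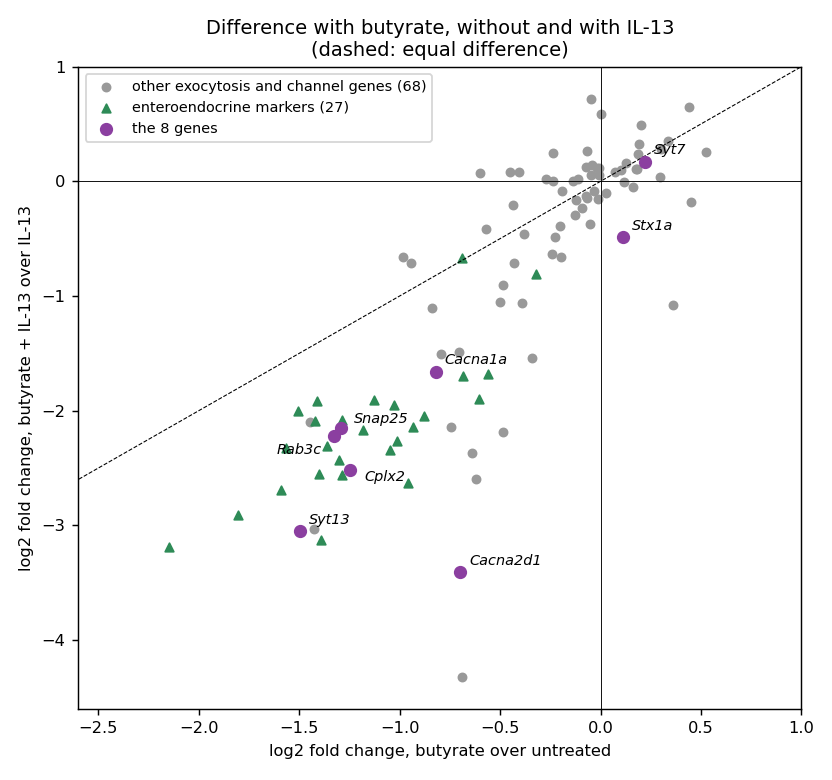
Log2 fold change of both agents over IL-13 (vertical) against that of butyrate over untreated (horizontal), for the 8 genes, 27 enteroendocrine markers and 68 other exocytosis and calcium channel genes; the dashed line marks equal values. Syt7 lies just under the line near the origin, Stx1a is lower on the vertical axis alone, and the other 6 lie among or below the enteroendocrine markers and under the line.

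Enteroendocrine markers were lower in the same groups as 6 of the 8 genes, all except Stx1a and Syt7. Of 27 tested from a list of 30, 23 fell and 0 rose with butyrate over untreated, with a median log2 fold change of -1.29, and 27 of 27 fell with both agents over IL-13, with a median of -2.15. With IL-13 over untreated 5 rose and 1 fell. The count of 23 was 15 without untreated replicate 2 or 3 and 22 without both Lars2-high libraries, where that of 27 was 27. The summed level of the 30 markers was 1372 to 1807 CPM untreated, 647 to 775 CPM with butyrate, 1939 to 2128 CPM with IL-13 and 481 to 677 CPM with both agents. Their part in the values of the 8 genes was not tested.

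The 8 genes were also set against Chga and Chgb, which code for the chromogranins that fill enteroendocrine granules. The summed level of this pair was 1132 ± 170 CPM untreated, 448 ± 49.3 CPM with butyrate, 1153 ± 51.4 CPM with IL-13 and 209 ± 62.1 CPM with both agents (SD, n = 3). Per 1000 CPM of the pair, Cplx2 stood at 14.7 ± 0.968, 15.6 ± 2.67, 14.5 ± 1.75 and 14.5 ± 3.19 CPM in the same order, so the 4 groups did not differ beyond their spread on this scale. Snap25 stood at 3.41 ± 0.549, 3.50 ± 0.286, 3.11 ± 0.281 and 3.43 ± 2.40 CPM, again with overlapping groups. Syt13, at 7.26 ± 0.842, 6.47 ± 0.777 and 7.63 ± 0.822 CPM, was lower with both agents, at 5.13 ± 0.213 CPM, a group that did not overlap the other 3. Rab3c and Cacna1a had their highest ratio with both agents, at 10.5 ± 4.01 and 9.29 ± 4.01 CPM against 7.10 ± 1.79 and 4.81 ± 0.331 CPM untreated. Per 1000 CPM of all 30 enteroendocrine markers this order was not seen: Rab3c was lowest with both agents, at 3.74 ± 1.04 CPM against 4.87 ± 1.22 CPM untreated, and Cacna1a stood at 3.40 ± 1.57 CPM against 3.31 ± 0.292 CPM untreated and 4.54 ± 0.903 CPM with butyrate. On the same scale Syt13 stood at 4.98 ± 0.527 CPM untreated and 1.86 ± 0.164 CPM with both agents. Snap25 stood at 2.34 ± 0.336 and 1.32 ± 1.02 CPM in these groups.

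Against the chromogranins, Cacna2d1 moved down and Stx1a and Syt7 moved up with both agents, whereas with butyrate alone each of them moved up. Cacna2d1 was at 3.90 ± 0.458 CPM per 1000 CPM of the chromogranins untreated and 5.97 ± 1.20 CPM with butyrate, but at 2.35 ± 1.37 CPM with both agents. The last value rests on 10, 2 and 7 counts. Its highest library, at 3.38 CPM, lay just under the lowest untreated one, at 3.39 CPM. Stx1a went from 8.66 ± 1.89 CPM untreated to 23.4 ± 4.45 CPM with butyrate and 48.9 ± 12.4 CPM with both agents, and Syt7 from 58.7 ± 4.70 to 173 ± 14.4 and 363 ± 129 CPM, while their own CPM in those groups stayed near the untreated level. Per 1000 CPM of all 30 enteroendocrine markers the rise of this ratio with both agents was smaller, with Stx1a at 5.94 ± 1.25 CPM untreated and 17.4 ± 2.22 CPM with both agents, and Syt7 at 40.3 ± 3.20 and 128 ± 28.6 CPM. On that scale Cplx2 stood at 10.05 ± 0.476 CPM untreated, 10.1 ± 1.70 CPM with butyrate, 8.16 ± 0.883 CPM with IL-13 and 5.22 ± 0.996 CPM with both agents. Cacna2d1 stood at 2.67 ± 0.283 CPM untreated, 3.86 ± 0.772 CPM with butyrate and 0.843 ± 0.477 CPM with both agents. The marker Cpe, which codes for carboxypeptidase E and belongs to that sum, rose with IL-13 by a log2 fold change of 2.38.

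**Figure D4:**
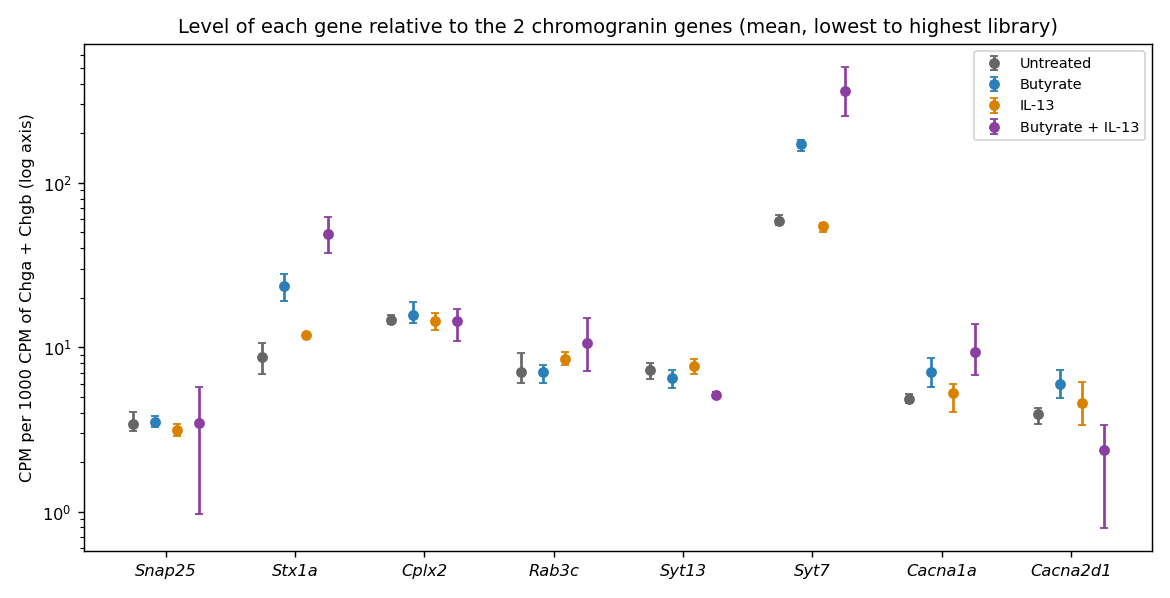
Level of each of the 8 genes per 1000 CPM of Chga and Chgb together, on a log axis; points are means of 3 libraries and bars run from the lowest to the highest library. Snap25 and Cplx2 keep overlapping groups, Syt13 and Cacna2d1 have their lowest mean with butyrate + IL-13, and Stx1a and Syt7 reach 48.9 and 363 there.

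Other cells that can carry this machinery were read from their own markers. Of 12 neuron markers 9 had a row, and their summed level was 12.1 to 15.2 CPM untreated, 6.49 to 10.2 CPM with butyrate, 15.2 to 19.9 CPM with IL-13 and 5.71 to 10.04 CPM with both agents. Nefm, a neurofilament gene, made up 7.32 of these CPM in the untreated mean, while Elavl4 had 12 counts over all libraries. Of 5 neuron markers tested, 1 fell with butyrate over untreated and 3 with both agents over IL-13. The 15 tuft cell markers summed to 23.2 to 31.6 CPM untreated, 13.1 to 17.6 CPM with butyrate, 101 to 109 CPM with IL-13 and 22.3 to 32.2 CPM with both agents. The 9 goblet cell markers summed to 3160 to 4694 CPM untreated, 2423 to 3065 CPM with butyrate, 2217 to 3115 CPM with IL-13 and 1341 to 1455 CPM with both agents. The 10 immune and mast cell markers, of which 5 had a row, summed to 33.3 to 35.8 CPM untreated, 30.6 to 32.7 CPM with butyrate, 36.5 to 43.8 CPM with IL-13 and 25.6 to 27.4 CPM with both agents, with Cd3e at 3 counts over all libraries. The part of these cells in the values of the 8 genes was not tested.

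The genes most like each of the 8 were found by Pearson's r of log2 CPM over the 12 libraries, among 11573 others averaging 50 counts or more per library. The 12 points share libraries and fall in 4 groups, so r describes mostly the group pattern and has no p here. For Syt13 the closest were Chgb (r = 0.99) and Chga (0.99), then Amigo2, Foxa2 and Olfm4. For Cplx2 they were Olfm4 (0.99), Chgb (0.98), Chga (0.98), Insm1 and Gng4, and for Rab3c the prohormone convertase Pcsk1 (0.97), the serotonin synthesis enzyme Tph1 (0.96), Suox, Chga and Neurod1. Snap25 was most like Gfi1 (0.98), Fev (0.97), Trmt61a, Spink4 and Klf11, and Cacna1a most like Trp53i11 (0.96), Insm1, Sst, Trmt61a and Gfi1. Cacna2d1 was closest to Lmx1a (0.98), a transcription factor, followed by Ogdhl, Pla2g2f, Rgs4 and Tpst1.

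Stx1a and Syt7 had other neighbours. Stx1a was closest to Slc37a2 (r = 0.91), Cdc34, Senp3, Smg5 and Efha1, and Syt7 to Clec2d (0.92), Cmpk2, AC148991.1, Parp12 and Ifit2. Among the 8 genes themselves, Syt13 and Cplx2 (0.98) and Rab3c and Syt13 (0.95) were the closest, whereas Syt7 had an r from -0.63 to -0.28 with the other 7.

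The wider machinery was read from 106 other genes of the same families, listed from textbook groups, of which 93 had a row and 68 were tested. Against the backgrounds given above, 13 rose and 7 fell with IL-13 over untreated (29.4%), 0 rose and 9 fell with butyrate over untreated (13.2%), and 3 rose and 19 fell with both agents over IL-13 (32.4%). Their median log2 fold change was -0.12 for butyrate over untreated and -0.10 for both agents over IL-13, beside -0.01 for all genes. The 8 genes were chosen with their values known, so their medians are no standard for this list. With both agents over butyrate 14 rose and 11 fell, and with both agents over untreated 14 rose and 20 fell. The interaction called 0 of the 68 in edgeR, with 4 higher and 15 lower at an unadjusted p under 0.05, and DESeq2 called 1, as higher. The count of 9 for butyrate over untreated was 2 without untreated replicate 3, 3 without untreated replicate 2 or butyrate replicate 1, and 4 without butyrate replicate 2. It was 5 without IL-13 replicate 1 or 3.

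Of 22 other SNAREs and SNARE-binding proteins tested, many of them used by most cells, edgeR called 0 with butyrate over untreated (1 higher and 2 lower at an unadjusted p under 0.05), DESeq2 called 1 as higher, and 1 rose and 3 fell in edgeR with both agents over IL-13. Snap23, which takes the place of Snap25 in most non-neuronal cells, stood at 48.8 ± 5.06 CPM untreated, 55.6 ± 8.15 CPM with butyrate, 55.8 ± 5.28 CPM with IL-13 and 65.8 ± 7.17 CPM with both agents, and was not called with either agent over untreated or with both over IL-13. The apical syntaxin Stx3 rose with IL-13 from 93.1 ± 7.19 to 114 ± 4.66 CPM (edgeR adjusted p = 0.0279, with 0.0015 to 0.12 over the alternatives).

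Of 16 other genes of priming, the active zone and the complexin family, 3 fell with butyrate over untreated, and 6 fell and 1 rose with both agents over IL-13. Cplx1, the close relative of Cplx2, fell with both agents from 2.58 ± 0.387 CPM with IL-13 to 0.312 ± 0.29 CPM (edgeR adjusted p = 0.000312, log2 fold change -3.03 ± 0.50). Its difference with butyrate alone (-1.42 ± 0.43, edgeR adjusted p = 0.0496) lost its call in 14 of the alternatives that fitted it, with 0.022 to 0.22 over them. Rimbp2, which links release sites to calcium channels, fell from 6.86 ± 0.846 to 1.55 ± 0.642 CPM (-2.14 ± 0.32, edgeR adjusted p = 0.000131). The dense-core vesicle priming gene Cadps2 fell in both comparisons, by 0.84 and 1.10 on the log2 scale, though the first was no longer called after leaving out untreated replicate 3 (0.075) or butyrate replicate 1 (0.07) or 2 (0.052), with 0.0015 to 0.075 over the alternatives. The priming gene Unc13a rose with both agents over IL-13, from 30.1 ± 2.20 to 45.3 ± 3.61 CPM (0.59 ± 0.11, edgeR adjusted p = 0.00102).

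In the Rab3 and Rab27 system, 2 of 17 genes fell with butyrate over untreated, and 8 fell and 1 rose with both agents over IL-13. Rab3d, the Rab3 form of exocrine granules, fell with butyrate from 112 ± 4.72 to 83.0 ± 5.91 CPM and with both agents from 83.4 ± 3.66 with IL-13 to 51.0 ± 3.54 CPM (log2 fold changes -0.43 ± 0.08 and -0.71 ± 0.09), beside -1.33 and -2.22 for Rab3c. Rab3a, the main synaptic Rab3, stood between 8.57 ± 1.02 and 11.1 ± 2.05 CPM in the 4 groups and was not called in these comparisons. Rab27a, which tethers granules at the membrane, fell with both agents over IL-13 from 41.1 ± 3.98 to 19.8 ± 4.85 CPM (-1.05 ± 0.16, edgeR adjusted p = 0.000158). Its effector Sytl2 fell from 29.7 ± 1.52 to 14.3 ± 2.99 CPM (-1.06 ± 0.16, edgeR adjusted p = 0.000134).

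Other synaptotagmins split. Syt12 rose with IL-13 from 23.4 ± 2.23 to 123 ± 4.61 CPM (edgeR adjusted p = 1.03e-12, log2 fold change 2.40 ± 0.09) and Syt16 fell with butyrate from 8.14 ± 0.127 to 4.18 ± 0.954 CPM (-0.95 ± 0.20, edgeR adjusted p = 0.00526). Of 7 tested, 3 rose with IL-13, 2 fell with butyrate over untreated and 1 fell with both agents over IL-13. Syt1, the main fast calcium sensor of synapses, had 64 counts over the 12 libraries and was not tested.

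Of the other calcium channel genes 6 of 24 listed were tested, and 2 fell with butyrate over untreated and 1 with both agents over IL-13. Cacna1h, the pore of a T-type channel, fell with both agents from 13.4 ± 1.05 to 4.74 ± 0.881 CPM (edgeR adjusted p = 9.56e-05, log2 fold change -1.51 ± 0.22). With butyrate alone it fell from 10.2 ± 3.15 to 5.88 ± 0.519 CPM (-0.79 ± 0.20, edgeR adjusted p = 0.0187, with 0.0034 to 0.15 over the alternatives), a call that ended on leaving out untreated replicate 2 (0.063) or 3 (0.15) or butyrate replicate 1 (0.099), and in a fit restricted to this pair of groups (0.056). Cacna1d, the pore of an L-type channel, rose with IL-13 from 15.7 ± 0.713 to 20.5 ± 1.06 CPM (0.38 ± 0.11, edgeR adjusted p = 0.00744) and stood at 15.7 ± 0.13 CPM with butyrate. The pores Cacna1c and Cacna1e had 44 and 6 counts over all libraries and were not tested. Of the 9 genes of the wider list that fell with butyrate over untreated, 7 were among the 19 that fell with both agents over IL-13. They were Cacna1h, Cadps, Cadps2, Cplx1, Rab27a, Rab3d and Syt16. Over the alternatives this overlap ran from 2 genes, Rab3d and Syt16, without untreated replicate 3 to 7; it was 3 without untreated replicate 2 or butyrate replicate 1, and 4 without butyrate replicate 2 or 3, butyrate + IL-13 replicate 3 or any single IL-13 library, and in fits restricted to the groups in question. For butyrate over untreated Cadps lost its call in 14 of 18 alternatives and Rab27a in 8 of 19. The like overlap over all genes tested was not counted, and both comparisons come from the same fit. Nothing is therefore read from these 7 genes.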

How the data were processed

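Directional poly(A) libraries of ileal enteroids were sequenced, per the labels' protocols. The deposited table holds raw whole-number counts for each gene and library. Beside them stand the authors' own p-value, FDR, log2 fold change and shrunken log2 fold change for untreated and IL-13 libraries. The submitters' processing notes name mm10 as the build. Aligner, counter and use of strand: not given in the sources used here, so reads of overlapping antisense genes may not be separated. Summing the rows of 23 gene identifiers that had several turned 18092 rows into 18068 genes.

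The main test was the quasi-likelihood test of edgeR 4.0.16 (R 4.3.3; robust glmQLFit, TMM, filterByExpr, 13750 genes kept and 4318 removed) in a fit of all 12 libraries with a coefficient per group, 8 residual degrees of freedom and a biological coefficient of variation of 10.2%. Benjamini-Hochberg adjustment ran over all genes kept, with calls under 0.05. The procedure was tested on simulated counts. For the interaction it recovered 29.9% of 1.5-fold and 73.8% of 2-fold changes. In the other comparisons simulated it recovered 59.7% to 65.7% of 1.5-fold and 80.6% to 84.8% of 2-fold changes. Each simulation changed 65 to 67 tested genes per fold size and kept all others flat, of which 6 to 12 were called. The real pairwise comparisons called far more genes, so these shares may not carry over to them. Exon lengths came from GENCODE, and promoters from RefSeq, where 4 of the 8 genes had a window and 3 are printed. As alternatives, DESeq2 1.42.0, RLE scaling, no low-count filter, a minimum mean of 50 counts, fits restricted to the groups in question, the replicate number as a block, and omission of each library were run. Omission of both libraries highest in Lars2 was chosen after seeing the data.

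The 8 genes and the gene lists were chosen with earlier results of these data known. Other named genes were a set of familiar exocytosis and enteroendocrine genes, up to 4 called genes of smallest adjusted p per list and comparison, and for each of the 8 the 5 genes of highest r; the text prints some of them, and some list members are not reported here. Cd3e, Elavl4, Nefm, Cpe and Lars2 were named after their values were seen.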

Additional observations from a re-analysis of the deposited data

Results flagged for a closer look

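The interaction term of the edgeR fit is the difference between both agents over IL-13 and butyrate over untreated. Among the 8 genes its lowest values were those of Syt13 (-1.55 ± 0.30 on the log2 scale), Cplx2 (-1.27 ± 0.26) and Cacna2d1 (-2.71 ± 0.47), which were chosen with these values known, so they are a description and nothing is read from their calls. In all 3 the value kept its sign in every alternative run.

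The granule genes Chga and Chgb passed that term. Chga was at -1.10 (edgeR adjusted p = 0.0145, with 0.0002 to 0.0559 over the alternatives), a call that ended without butyrate replicate 1 (0.056) or IL-13 replicate 1 (0.052). Chgb was at -1.13 (edgeR adjusted p = 0.0187, with 0.0004 to 0.136 over the alternatives), a call that ended with no filter (0.12), without any single butyrate library (0.071, 0.14 and 0.079), and without untreated replicate 1 (0.056), IL-13 replicate 1 (0.056) or 2 (0.056), or butyrate + IL-13 replicate 2 (0.067).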

How the results depend on the processing

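For the 8 genes 898 values were recomputed under the alternatives: 892 stayed within 1 replicate SD, 6 moved further and 0 called values changed sign. The 6 were 4 values of Snap25 without butyrate + IL-13 replicate 1, where both agents over untreated became -3.14, and 2 of Cplx2 without both Lars2-high libraries. The SD is that of single libraries, pooled over groups. Leaving out 1 of 3 libraries moves a group mean by less than that group's SD. The count of 892 was thus largely set in advance and says little about stability. For Snap25 the SD was 0.71 on the log2 scale, so an interaction of -0.33 against -0.86 counted as within it. Snap25 had no value under the filter at a mean of 50 counts, and no interaction can be had from only 2 groups. Of 2796 recomputed values of other named genes, 2607 kept their direction and call, 170 lost a call, 19 gained one and 0 reversed. The replicate numbers of the labels gave no sign of pairing. Over 18 same-numbered pairs the deviations from the group means correlated at -0.15 to 0.097, and over differently numbered pairs at -0.21 to 0.17. With 3 libraries per group this cannot exclude pairing. With the number as a block, 978 genes were called for butyrate over untreated (1086 without it), 2757 for both agents over IL-13 and 114 for the interaction, and 7, 21 and 0 of the 68 exocytosis and channel genes.

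With 1 library left out at a time, genes called ran from 559 to 1395 for butyrate over untreated, from 1935 to 3451 for both agents over IL-13 (2912 with all) and from 55 to 213 for the interaction (119 with all). Of the exocytosis and channel genes, 3 to 10 were called for butyrate over untreated and 0 to 1 for the interaction. DESeq2 called 276 genes for the interaction and 1 of the 68, as did leaving out both Lars2-high libraries. A fit of only the groups compared called 5 of the 68 for butyrate over untreated and 14 for both agents over butyrate (25 in the fit of all groups), where leaving out both Lars2-high libraries gave 16. Depth limits Snap25, Syt13 and Cacna2d1 most, with 20 or fewer counts in each library with both agents.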
